A study of Mus musculus with 12 samples.

Results

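Glul, Oat, Slc1a2, Rhbg, Rgn, Lgr5, Axin2, Znrf3, Rnf43 and Tbx3 are genes that hepatocytes around the central vein express, or that answer to Wnt signalling there. They were taken by gene symbol, 10 genes of the 56065 gene IDs listed, and all 10 were among the 13631 genes with enough reads to be tested. Poly(A)-selected RNA of whole liver was sequenced from 12 libraries, 4 in each of 3 groups. The MD+CA group received a diet with 40% of its energy from fat, 20% from fructose, and 2% cholesterol, the MASH diet (MASH stands for metabolic dysfunction-associated steatohepatitis). It was also injected into the peritoneum 3 times a week with 12 mg/kg cinnabarinic acid in 0.2% DMSO. Cinnabarinic acid is made from tryptophan and binds the aryl hydrocarbon receptor, AhR. The MD group received the same diet and injections of the DMSO and saline vehicle. The CD group received a control diet with 10% of its energy from fat and matching sucrose, and the labels do not say whether it was injected. In all groups the mice were AhR-floxed, with no Cre named, were labelled male, were 8 weeks old at the start and were kept on their diet for 20 weeks. Whether the 4 libraries in each group are from different mice is not stated, so p-values measure the spread between libraries, which may be technical.

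In the liver lobule, endothelial cells of the central vein secrete Wnt ligands and R-spondin 3, which hold β-catenin active in the hepatocytes next to them. These hepatocytes take up the ammonia and glutamate that periportal cells leave and make glutamine from them, and they express genes that β-catenin with TCF/LEF factors switches on. Several of those genes act back on the pathway as receptors or inhibitors. Whole-liver RNA cannot tell fewer pericentral hepatocytes from less RNA in each of them.

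No gene of the 10 differed between any 2 groups by the edgeR quasi-likelihood test at an adjusted p under 0.05. Of all genes tested, 0.088% passed in MD vs CD, 2.71% passed in MD+CA vs MD and 0.528% passed in MD+CA vs CD. These backgrounds moved when 1 library was left out. The 12 genes of MD vs CD became 0 without CD replicate 1 or 2, with 2326 and 1724 genes at an unadjusted p under 0.05. They became 26 without MD replicate 3, and 1 without MD+CA replicate 2 or 4, which are in neither compared group. The 369 genes of MD+CA vs MD became 109 without MD replicate 1 and 963 without MD replicate 3, and the 72 of MD+CA vs CD became 17 without CD replicate 4 and 169 without MD+CA replicate 4. At an unadjusted p under 0.05, 2 of the 10 were below it in each comparison: Tbx3 and Rhbg in MD vs CD, Tbx3 and Znrf3 in MD+CA vs MD, and Znrf3 and Rnf43 in MD+CA vs CD. The same threshold was met by 19.9% of all genes in MD vs CD, by 23.2% in MD+CA vs MD and by 10.5% in MD+CA vs CD, so the count of 2 in 10 is close to the background in the first 2 comparisons. Over the alternatives this count ran from 1 (without CD replicate 1, CD replicate 2 or MD replicate 1, and with a fragment length covariate) to 5 (limma voom) in MD vs CD. It ran from 0 (without MD replicate 1) to 3 in MD+CA vs MD, and from 0 (with a transcript length offset) to 2 in MD+CA vs CD. The libraries of both groups did not overlap for 2 of the 10 in MD vs CD (Tbx3 and Slc1a2, higher in MD), for 1 in MD+CA vs MD (Slc1a2, lower in MD+CA) and for 1 in MD+CA vs CD (Znrf3, lower in MD+CA), all in CPM. Non-overlap was found for 13.1% of all genes in MD vs CD, for 10.2% in MD+CA vs MD and for 6.4% in MD+CA vs CD.

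The number of reads assigned to transcripts was 9089586 to 14492587 per library. Mitochondrially encoded genes took 4.97% to 7.94% of them in MD+CA, 6.16% to 17.5% in MD and 5.72% to 6.63% in CD, with MD replicate 2 at 17.5% standing apart. Hepatocyte markers such as Alb and Apoa1 had 49346 to 66558 summed CPM (read counts scaled to a fixed library total) in MD+CA, 36776 to 63858 in MD and 55598 to 71804 in CD, and 0 of the 8 passed the test in any comparison. All 12 libraries held between 5122 and 12865 reads of Xist and 0 reads of Ddx3y, Kdm5d, Uty and Eif2s3y, which goes against the male label. Of the 10 genes, Rgn is on the X chromosome.

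Per transcript length, as TPM (transcripts scaled to a fixed library total), the genes spanned a wide range of levels. The median level over the 12 libraries was 1901 TPM for Rgn, 1177 TPM for Oat, 492 TPM for Glul and 58.1 TPM for Slc1a2. Tbx3 had a median level of 7.20 TPM, Rnf43 of 6.40 TPM, Axin2 of 2.35 TPM, Lgr5 of 2.15 TPM, Znrf3 of 1.79 TPM and Rhbg of 1.02 TPM. The genes of nitrogen and ascorbate metabolism other than Rhbg thus had higher levels than Tbx3 and the Wnt pathway genes. The ranges of Oat and Glul, of Glul and Slc1a2, and of Slc1a2 and Tbx3 lay apart. Rgn had a higher level than Oat in 11 of 12 libraries, with overlapping ranges, Tbx3 a higher level than Rnf43 in 8 of 12, and Rnf43 a higher level than Axin2 in 12 of 12, also with overlapping ranges. Among Axin2, Lgr5, Znrf3 and Rhbg neighbours overlapped, and the first of each pair was higher in only 7 to 9 of 12 libraries.

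**Figure D1:**
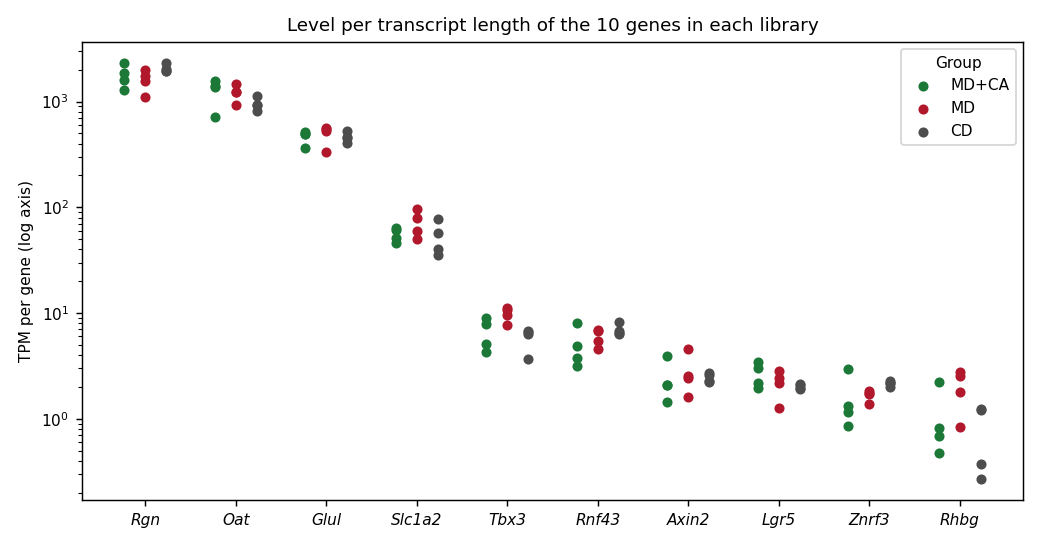
Level of each of the 10 genes in TPM (log axis) in every library, with the genes ordered by their median over 12 libraries and the groups MD+CA, MD and CD side by side. The level runs down from Rgn at a median of 1901 TPM to Rhbg at 1.02 TPM, with a gap between Slc1a2 and Tbx3.

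The low levels set how closely each gene can be read. Rhbg had 5 to 65 reads per library, so counting error alone was 44.7% at the lowest. Lgr5, Axin2 and Znrf3 had at least 44, 46 and 40 reads, with counting errors of 15.1%, 14.7% and 15.8% at the lowest. Glul, Oat and Rgn had at least 8060 reads in each library, and there the spread between libraries, not counting, limited the comparison. The biological coefficient of variation, the fitted relative spread between libraries of a group, was 0.543 for Rhbg and between 0.209 and 0.277 for the other 9, against 0.308 as the common value of all genes.

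Glul encodes glutamine synthetase, which joins ammonia to glutamate in the hepatocytes bordering the central vein. Its CPM was 744, 995, 1185 and 983 in the MD+CA libraries, 1319.5, 821, 1155 and 1308 in the MD libraries, and 858, 893, 1139 and 968 in the CD libraries. The 3 groups overlapped, and both the highest and nearly the lowest library belonged to MD. The log2 fold change was 0.26 in MD vs CD (SE 0.23, 95% interval -0.23 to 0.74, adjusted p = 0.545). It was -0.24 in MD+CA vs MD (interval -0.72 to 0.25, adjusted p = 0.557) and 0.02 in MD+CA vs CD (interval -0.47 to 0.50). A difference of 2-fold, 1 on the log2 scale, lay outside all 3 intervals.

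Oat encodes ornithine aminotransferase, a mitochondrial enzyme that turns ornithine into a precursor of glutamate. Its CPM was 2259, 1911, 1136 and 1789 in MD+CA, 2518, 1582, 1771 and 2003 in MD, and 1269, 1453, 1185 and 1624 in CD. MD and CD overlapped only through MD replicate 2, which lay under the highest CD library, and MD+CA held both high and low libraries. For Oat the fitted log2 fold change was 0.51 in MD vs CD (SE 0.25, interval -0.03 to 1.04, adjusted p = 0.271), -0.15 in MD+CA vs MD (adjusted p = 0.751) and 0.36 in MD+CA vs CD (adjusted p = 0.729).

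Slc1a2 encodes the glutamate transporter GLT-1, known from astrocytes and, in liver, from pericentral hepatocytes. Its CPM was 134, 182, 182 and 196 in MD+CA, 244, 231, 198 and 213 in MD, and 157, 181, 162 and 197 in CD. In CPM the MD libraries all lay above those of both other groups, by a narrow margin at MD replicate 3, and MD+CA and CD overlapped. Slc1a2 had a log2 fold change of 0.35 in MD vs CD (SE 0.19, interval -0.05 to 0.74, adjusted p = 0.308) and -0.35 in MD+CA vs MD (SE 0.19, interval -0.75 to 0.05, adjusted p = 0.269). It was -0.00 in MD+CA vs CD (interval -0.40 to 0.39), and a 2-fold difference lay outside all 3 intervals of this fit. With a transcript length offset it was 0.62 in MD vs CD (adjusted p = 0.264) and -0.54 in MD+CA vs MD (adjusted p = 0.272). With that offset the unadjusted p was under 0.05 in MD vs CD but not in MD+CA vs MD. In TPM, which takes length into account and is not TMM-scaled, the groups overlapped. They were at 45.7 to 63.4 in MD+CA, 49.6 to 96.6 in MD and 35.3 to 77.3 in CD. Of the 5 brain cell markers 3 were tested, Aqp4, Syt1 and Rbfox3, and 0 passed in any comparison. Their list summed to 9.0 to 14.7 CPM in MD+CA, 9.88 to 14.2 in MD and 8.34 to 13.6 in CD.

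The transcripts of Slc1a2 begin at separate places. The form of 11595 bases starts at the beginning of the gene and took 75.6% of its reads, whereas 2 shorter coding forms start 47779 bases further in (distance in GENCODE M21, build GRCm38) and together took 19.4%. The share of that inner start was 22.0%, 15.7%, 30.9% and 18.8% of Slc1a2 reads in MD+CA, 18.6%, 6.16%, 28.3% and 23.7% in MD, and 17.8%, 19.2%, 17.0% and 17.8% in CD. The groups overlapped, and MD replicate 2 was lowest. The RefSeq promoter window of Slc1a2 (build GRCm38.p6, chr2:102706188-102706487, plus strand, 250 bases before to 50 after the start) lies at this inner start, not at the start of the 11595-base form. It is shown because it is the 1 of 6 windows matched to the 10 genes, covering Glul, Oat, Slc1a2, Axin2 and Rnf43, that holds the TCF/LEF letters ATCAAAG or, on the other strand, CTTTGAT. The match begins at base 44 of the window and stands in capitals.
Slc1a2 inner start: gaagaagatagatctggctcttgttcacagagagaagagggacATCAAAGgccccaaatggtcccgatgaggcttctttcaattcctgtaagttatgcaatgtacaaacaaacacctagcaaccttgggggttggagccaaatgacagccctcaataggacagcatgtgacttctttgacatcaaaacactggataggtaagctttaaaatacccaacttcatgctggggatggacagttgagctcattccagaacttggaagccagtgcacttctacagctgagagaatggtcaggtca
Of 32851 windows of this length, 3.73% hold such a match, and a match of letters is not a binding site.

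Rhbg encodes an ammonia and ammonium transporter of the hepatocyte membrane. Its CPM was 2.94, 0.655, 1.39 and 0.865 in MD+CA, 4.55, 2.85, 1.20 and 3.98 in MD, and 0.338, 0.507, 1.79 and 1.74 in CD. 3 of the 4 MD libraries lay above every CD library, and MD replicate 3 lay among them. Rhbg had a log2 fold change of 1.52 in MD vs CD (SE 0.59, interval 0.27 to 2.76, adjusted p = 0.184), the largest of the 10 genes in size. It was -1.11 in MD+CA vs MD (SE 0.58, interval -2.34 to 0.13, adjusted p = 0.264) and 0.41 in MD+CA vs CD (SE 0.61, interval -0.89 to 1.70, adjusted p = 0.914). Without MD+CA replicate 1, its highest library in that group, these were -1.72 in MD+CA vs MD (adjusted p = 0.0977) and -0.21 in MD+CA vs CD (adjusted p = 0.955). Gm38392 overlaps Rhbg on the same strand and had 236 reads over the 12 libraries, so the division of reads between them is uncertain.

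Rgn encodes regucalcin, a calcium-binding protein that is also the gluconolactonase of ascorbate synthesis in mice. Its CPM was 1427, 1943, 1912 and 2228 in MD+CA, 2363, 1517, 2143 and 1934 in MD, and 2026, 2420.3, 2104 and 2521 in CD. The 3 groups overlapped, with the lowest libraries in MD+CA and MD and the highest in CD. For Rgn the fitted log2 fold change was -0.19 in MD vs CD (SE 0.23, adjusted p = 0.661), -0.08 in MD+CA vs MD (adjusted p = 0.853) and -0.27 in MD+CA vs CD (interval -0.75 to 0.21, adjusted p = 0.800). Over all 10 genes, Rgn was the one of high level with a negative log2 fold change in MD vs CD.

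**Figure D2:**
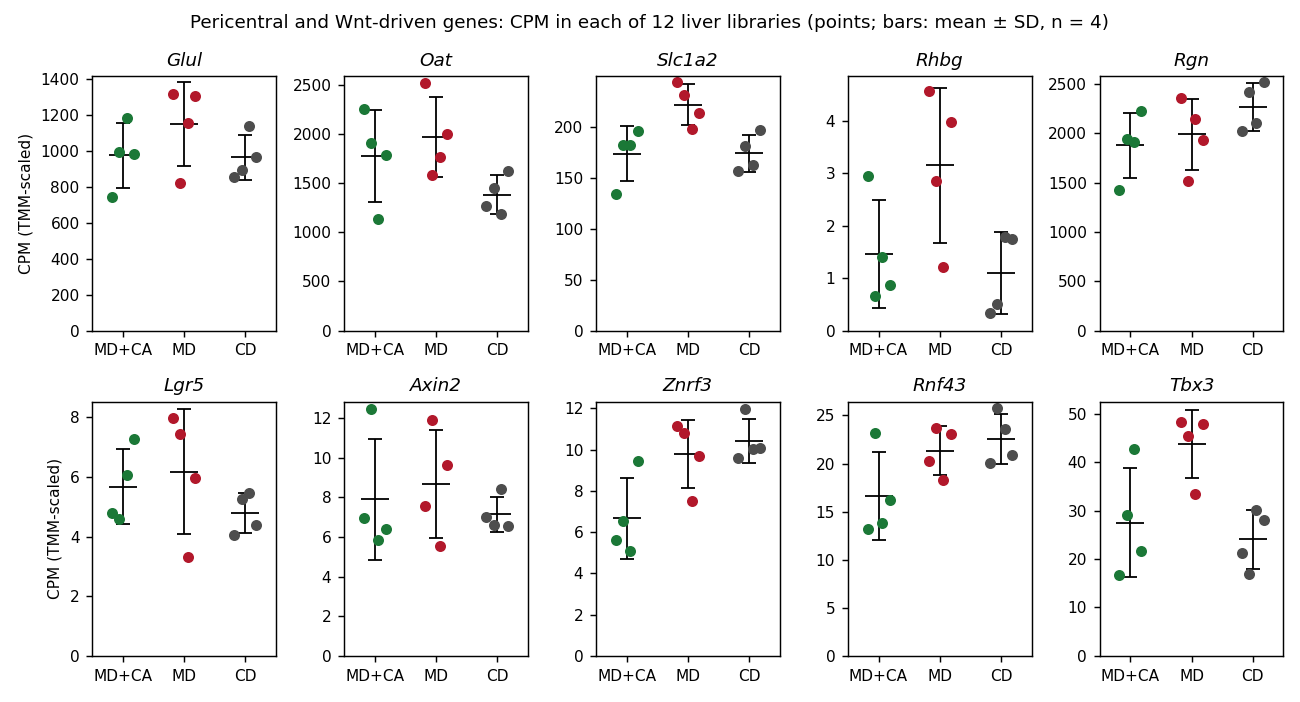
TMM-scaled CPM (linear axis from 0) of each gene in each library, in a panel per gene, with points for libraries and bars for the mean and SD of 4 libraries in MD+CA, MD and CD. On this scale Tbx3 and Slc1a2 have all 4 MD points above all 4 CD points, and Znrf3 has all 4 MD+CA points below all 4 CD points. The margins of Slc1a2 and Znrf3 are narrow.

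Lgr5 encodes a receptor for R-spondins, which raise Wnt signalling. Its CPM was 4.78, 4.58, 6.08 and 7.26 in MD+CA, 7.99, 7.43, 3.31 and 5.97 in MD, and 4.05, 5.27, 5.45 and 4.38 in CD. MD held both the highest and the lowest library of the 12, and the groups overlapped. Lgr5 had a log2 fold change of 0.37 in MD vs CD (SE 0.27, interval -0.22 to 0.95, adjusted p = 0.460), -0.12 in MD+CA vs MD (adjusted p = 0.823) and 0.25 in MD+CA vs CD (adjusted p = 0.871).

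Axin2 encodes a scaffold of the complex that marks β-catenin for destruction, and it is a widely used Wnt target gene that acts as a feedback inhibitor. Its CPM was 6.98, 12.4, 5.82 and 6.40 in MD+CA, 7.57, 11.9, 5.56 and 9.63 in MD, and 7.02, 6.58, 8.41 and 6.54 in CD. The groups overlapped, and 1 library in each of MD+CA and MD reached about 12 CPM. For Axin2 the fitted log2 fold change was 0.28 in MD vs CD (SE 0.28, interval -0.31 to 0.86, adjusted p = 0.591), -0.12 in MD+CA vs MD (adjusted p = 0.825) and 0.15 in MD+CA vs CD (adjusted p = 0.937).

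The reads of Axin2 were divided unevenly among its transcripts, which was noticed after the values were seen and is given without a test. The coding form of 4260 bases took 84.0% of reads over the 12 libraries, and a form of 2045 bases with no defined coding sequence took 8.69%. The 2045-base form was assigned 0 reads in all 4 MD+CA libraries, 18.3, 41.2, 9.44 and 13.4 reads in the MD libraries, and 0, 0, 0 and 15.5 reads in the CD libraries. As a share of Axin2 reads this was 16.9%, 35.2%, 12.8% and 11.0% in MD and 16.5% in CD replicate 4. A count of 0 among the 46 to 152 Axin2 reads of the MD+CA libraries allows a share of up to 1.97% to 6.52% (3 reads, counting error only). These are Salmon's estimates of how to divide reads among overlapping transcripts, at low depth, and MD replicate 2, highest for the 2045-base form, is also the library with 17.5% mitochondrial reads. Their part in the shares was not tested. The coding form begins at the start of the gene and the 2045-base form begins 23272 bases further in. The RefSeq window at the outer start (GRCm38.p6, chr11:108920099-108920398, plus strand) is shown for comparison with that of Slc1a2, and it holds 0 matches of the TCF/LEF letters on either strand. Only these letters and this window were searched, so the count of 0 does not show that Axin2 lacks TCF/LEF sites.
Axin2 outer start: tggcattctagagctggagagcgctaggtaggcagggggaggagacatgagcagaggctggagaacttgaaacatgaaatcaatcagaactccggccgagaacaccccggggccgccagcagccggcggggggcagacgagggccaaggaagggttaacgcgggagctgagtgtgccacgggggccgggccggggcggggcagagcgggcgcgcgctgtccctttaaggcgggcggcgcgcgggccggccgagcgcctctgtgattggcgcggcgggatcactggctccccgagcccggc

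**Figure D3:**
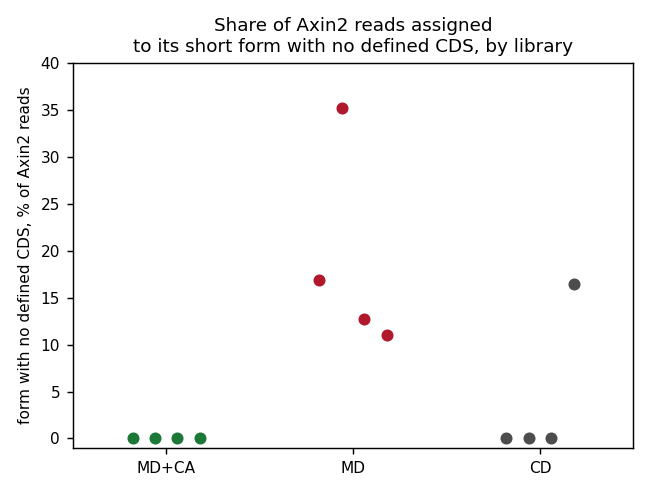
Share of Axin2 reads assigned to the 2045-base transcript (percent, linear axis) in each library of MD+CA, MD and CD. All 4 MD libraries lie between 11.0% and 35.2%, all 4 MD+CA libraries are at 0, and 1 of 4 CD libraries is at 16.5%.

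Znrf3 encodes a membrane E3 ubiquitin ligase that removes Frizzled receptors from the cell surface and so lowers Wnt signalling, until R-spondins with LGR receptors clear it. Its CPM was 5.60, 6.55, 5.06 and 9.42 in MD+CA, 11.1, 10.8, 7.51 and 9.71 in MD, and 9.59, 12.0, 10.0 and 10.1 in CD. In CPM the 4 MD+CA libraries lay below all CD libraries and overlapped MD only because MD+CA replicate 4 lay above MD replicate 3. The margin to CD was narrow, with MD+CA replicate 4 at 9.42 and CD replicate 1 at 9.59. Counting error for Znrf3 was 7.93% even in the library with most reads of it. The log2 fold change was -0.64 in MD+CA vs CD (SE 0.22, interval -1.11 to -0.17, adjusted p = 0.250) and -0.55 in MD+CA vs MD (SE 0.22, interval -1.02 to -0.08, adjusted p = 0.154). It was -0.09 in MD vs CD (interval -0.55 to 0.37, adjusted p = 0.847). Both comparisons of MD+CA share its 4 libraries. With a transcript length offset Znrf3 was at -0.51 in MD+CA vs CD (adjusted p = 0.672) and -0.29 in MD+CA vs MD (adjusted p = 0.588), neither with an unadjusted p under 0.05. In TPM its groups overlapped, at 0.858 to 2.95 in MD+CA, 1.38 to 1.82 in MD and 1.99 to 2.28 in CD, with MD+CA replicate 4 the highest of all 12.

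Rnf43 encodes a second ligase of the same kind. Its CPM was 13.2, 23.2, 13.8 and 16.3 in MD+CA, 20.3, 23.7, 18.3 and 23.1 in MD, and 20.1, 25.7, 23.6 and 20.9 in CD. 3 of the 4 MD+CA libraries lay below every MD and every CD library, and MD+CA replicate 2 lay among them. The log2 fold change was -0.44 in MD+CA vs CD (SE 0.20, interval -0.86 to -0.01, adjusted p = 0.446), -0.36 in MD+CA vs MD (SE 0.20, interval -0.78 to 0.07, adjusted p = 0.294) and -0.08 in MD vs CD (adjusted p = 0.850). The 2 ligases had a Pearson r of 0.75 in log2 CPM over 12 libraries (Spearman rho 0.73). The r was 0.27 without the 2 farthest libraries and 0.47 within groups, with the depth of each library shared by both genes. Its transcripts were divided unevenly: the share of the 3670-base form was 0% to 38.7% in MD+CA, 0% to 95.8% in MD and 0% to 14.2% in CD, where the 95.8% belongs to MD replicate 2.

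Tbx3 encodes a T-box transcription factor that Wnt signalling switches on in pericentral hepatocytes. Its CPM was 16.7, 29.0, 42.7 and 21.6 in MD+CA, 48.2, 45.4, 33.5 and 47.9 in MD, and 21.2, 16.8, 30.1 and 27.9 in CD. All MD libraries lay above all CD libraries, and MD+CA libraries spread over both ranges. Tbx3 had a log2 fold change of 0.86 in MD vs CD (SE 0.27, interval 0.29 to 1.44, adjusted p = 0.131) and -0.67 in MD+CA vs MD (SE 0.27, interval -1.25 to -0.10, adjusted p = 0.154). It was 0.19 in MD+CA vs CD (interval -0.39 to 0.77, adjusted p = 0.910). With limma voom and sample weights the MD vs CD difference was 0.90 with an adjusted p of 0.0483, so that tool called Tbx3 and edgeR did not. The antisense gene Tbx3os1 overlaps it, with 6.23 to 13.8 CPM in MD+CA, 9.16 to 29.4 in MD and 4.80 to 16.4 in CD. The strand setting of the quantification is not given in the sources used here. The division of reads between the pair is therefore uncertain where their transcripts overlap.

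In MD vs CD, 7 of the 10 genes had a positive log2 fold change and 3 a negative one (Rgn, Znrf3 and Rnf43), with a median of 0.31 against 0.04 for all genes tested. All 10 were negative in the fit of MD+CA vs MD, with a median of -0.29 against -0.00, although Lgr5 was positive at 0.09 with a transcript length offset and Axin2 at 0.04 with limma voom. In MD+CA vs CD, 6 were positive and 4 negative, with a median of 0.09 against 0.02. The first 2 of these comparisons share the MD libraries, so their signs are not independent. List medians in these 2 comparisons had the same signs for endothelial markers (0.37 and -0.38) and cholangiocyte markers (0.38 and -0.30). They also did for stellate cell and fibroblast markers (0.35 and -0.25). Medians were -0.16 and 0.20 for hepatocyte markers, 0.06 and 1.13 for Kupffer cell and macrophage markers, and 0.11 and 0.38 for lymphocyte markers. In the edgeR fit without an offset, a 2-fold difference in either direction lay outside the interval for 7 of 10 genes in MD vs CD. This held for 7 in MD+CA vs MD and 8 in MD+CA vs CD.

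**Figure D4:**
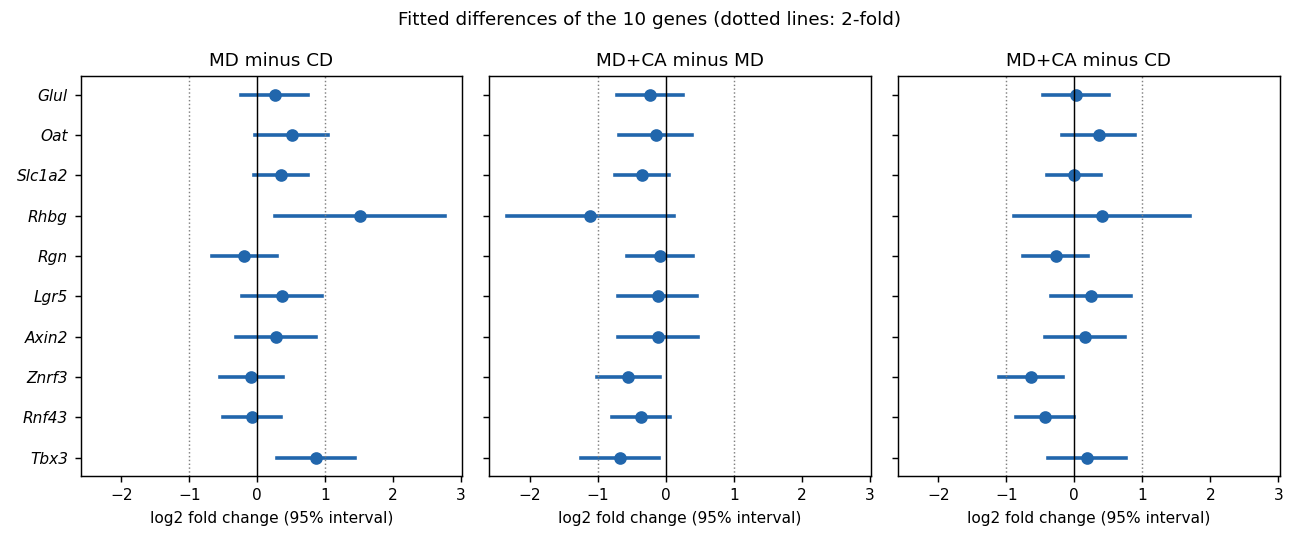
Fitted log2 fold change (point) with its 95% interval (line) for the 10 genes in MD minus CD, MD+CA minus MD and MD+CA minus CD, with dotted lines at 2-fold. In MD vs CD the intervals of Rhbg and Tbx3 lie above 0, in MD+CA vs MD those of Znrf3 and Tbx3 lie below 0, and in MD+CA vs CD those of Znrf3 and Rnf43 lie below 0, with 0 genes past the adjusted threshold.

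Over the 12 libraries pairs of the 10 genes were mostly weakly related. Of their 45 pairs, 37 had a positive Pearson r of log2 CPM, with a median of 0.25 and a range of -0.41 (Rgn with Axin2) to 0.75 (Znrf3 with Rnf43). Tbx3 had an r of 0.74 with Slc1a2 and 0.70 with Glul, and these were 0.47 and 0.62 within groups. The protein-coding gene most like Glul over the 12 libraries was Higd2a (r 0.92, rho 0.89), that most like Tbx3 was Gorasp1 (r 0.92, rho 0.89) and that most like Znrf3 was Esyt2 (r 0.94, rho 0.76). The other 7 had their closest gene at r 0.85 to 0.91: Plxna1 for Oat, Lin7a for Slc1a2, Isoc2b for Rhbg, Olfml1 for Rgn, Gatc for Lgr5, Speg for Axin2 and Tapt1 for Rnf43. Each is the highest of many correlations over the same 12 libraries, and is given as a description.

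The genes of the pathway around the 10 were described by lists. Of 14 Wnt ligands, R-spondins and secretion genes 8 were tested, and 0 rose or fell in any comparison at an adjusted p under 0.05. At an unadjusted p under 0.05, 5 of the 8 were higher in MD vs CD, a threshold that 19.9% of all genes met. In MD+CA vs MD 2 of the 8 were lower (23.2% of all genes met it), and in MD+CA vs CD 0 met it (10.5%). The list was not tested as a set. All 8 had a positive log2 fold change in MD vs CD (median 0.68), 7 of 8 a negative one in MD+CA vs MD (median -0.67) and 6 of 8 a positive one in MD+CA vs CD (median 0.35). Rspo3, the R-spondin of the central vein, had 16.6 ± 5.15 CPM in MD+CA, 19.6 ± 10.2 in MD and 13.6 ± 3.50 in CD (SD, n = 4). Wnt2, a ligand of liver endothelium, had a log2 fold change of 1.13 in MD vs CD (1.79 ± 0.624 CPM in MD, 0.815 ± 0.0131 in CD, adjusted p = 0.176). Its mean was below that of Rhbg in both groups (3.15 CPM in MD, 1.09 in CD), so its values rest on few reads. The small SD of Wnt2 in CD does not measure that counting error, and Wnt2 is among the 8 tested. Of 17 receptors and co-receptors 11 were tested, of 16 inhibitors 4, and of 20 genes of β-catenin, its destruction complex and the TCF/LEF factors 19, and 0 of these rose or fell in any comparison. Notum, a Wnt-inactivating enzyme and pericentral Wnt target, had 20.1 ± 3.24 CPM in MD+CA, 32.6 ± 3.45 in MD and 25.1 ± 4.73 in CD, with a log2 fold change of -0.70 in MD+CA vs MD (adjusted p = 0.0565). Of 14 other Wnt target genes 9 were tested, and only Tnfrsf19 fell in MD+CA vs MD, to 4.13 ± 1.40 CPM in MD+CA against 9.34 ± 2.08 in MD (SD, n = 4, log2 fold change -1.16, adjusted p = 0.0380). That call held in 12 of 22 alternatives, with adjusted p up to 0.112. It ended without CD replicate 3 or 4, MD replicate 1, 2 or 4, or MD+CA replicate 2 or 3. The call also ended with the transcript length offset, with only both groups in the fit and with the fragment length covariate. The threshold was passed by 2.71% of all genes tested in MD+CA vs MD.

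The other pericentral hepatocyte genes were counted in the same way. All 19 were tested, and 3 fell in MD+CA vs MD: Por, the reductase that feeds electrons to cytochromes P450 (log2 fold change -1.31, 167 ± 28.3 CPM in MD+CA, 415 ± 143 in MD, adjusted p = 0.0179), Cyp2a5, a cytochrome P450 (-2.34, 359 ± 201 CPM in MD+CA, 1823 ± 548 in MD, adjusted p = 0.0179), and Nr1i3, the nuclear receptor CAR (-1.47, 199 ± 53.0 CPM in MD+CA, 551 ± 138 in MD, adjusted p = 0.0171). Por also fell in MD+CA vs CD (-1.21, adjusted p = 0.0445, CD at 387 ± 30.9 CPM), and 0 rose or fell in MD vs CD. The threshold was passed by 2.71% of all genes tested in MD+CA vs MD, 0.528% in MD+CA vs CD and 0.088% in MD vs CD. The call of Nr1i3 held in 22 of 22 alternatives, those of Por and Cyp2a5 in MD+CA vs MD in 21 each, and that of Por in MD+CA vs CD in 12, with adjusted p up to 0.155. Of the 12 libraries, leaving out MD replicate 2, MD replicate 3 or MD+CA replicate 4 kept that last call, and leaving out any other ended it. The Cyp2a5 call ended without MD+CA replicate 2 (adjusted p = 0.0503), and that of Por in MD+CA vs MD ended with only both groups in the fit (adjusted p = 0.0562). The medians of the list were 0.39 in MD vs CD, -0.41 in MD+CA vs MD and -0.06 in MD+CA vs CD. Of 20 periportal genes 2 rose in MD+CA vs MD, Cdh1, which encodes E-cadherin (1.23, adjusted p = 0.0228), and Ctsc, a lysosomal protease (1.07, adjusted p = 0.0245), and the list medians were -0.30 in MD vs CD, 0.25 in MD+CA vs MD and -0.07 in MD+CA vs CD. Cdh1 had 43.4 ± 12.9 CPM in MD+CA and 18.4 ± 4.87 in MD, and Ctsc had 167 ± 30.3 in MD+CA and 79.8 ± 18.2 in MD (SD, n = 4). The call of Cdh1 held in 17 of 22 alternatives and that of Ctsc in 15, with adjusted p up to 0.0655 and 0.0758. Both ended without MD replicate 1, 2 or 4 or without MD+CA replicate 3, and that of Ctsc also without MD+CA replicate 2. Both calls also ended with only both groups in the fit, and that of Ctsc with the fragment length covariate. In the same comparison of MD+CA and MD, 5 of 8 Kupffer cell and macrophage markers rose. Of 14 clock genes, 8 fell and 1 rose there. Their part in the calls of both lists was not tested. The difference between these lists and the 10 genes was not tested.

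**Figure D5:**
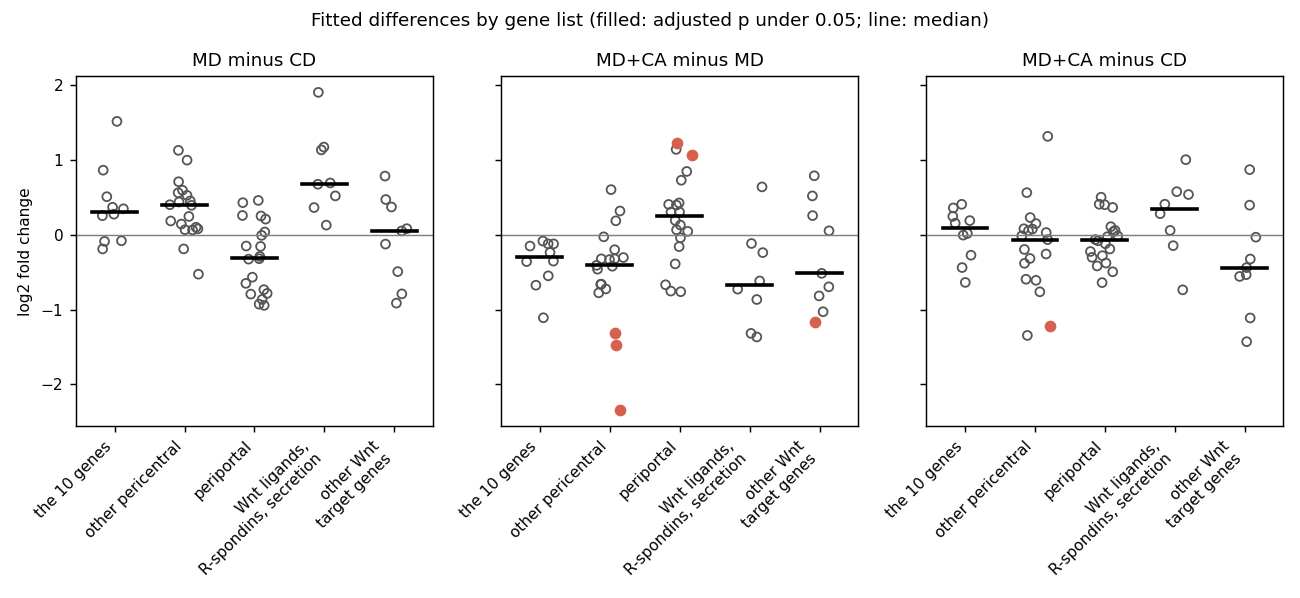
Fitted log2 fold change of every tested gene of the 10, of the other pericentral genes, of the periportal genes, of the Wnt ligands, R-spondins and secretion genes and of the other Wnt targets, in the 3 comparisons, with a line at each list's median. Filled points passed the adjusted threshold: 3 pericentral genes, 2 periportal genes and 1 Wnt target in MD+CA minus MD, 1 pericentral gene in MD+CA minus CD, and 0 elsewhere.

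The partners of the 10 genes in metabolism did not pass either. Of 24 genes of glutamine, glutamate and ornithine metabolism 20 were tested, and 0 rose or fell, with medians of 0.05 in MD vs CD, -0.17 in MD+CA vs MD and -0.10 in MD+CA vs CD. Gls2, the periportal glutaminase that runs the reaction opposite to Glul, had 274 ± 109 CPM in MD+CA, 250.3 ± 18.3 in MD and 279 ± 72.4 in CD (SD, n = 4). Of 6 genes of ascorbate synthesis and uptake, the pathway of Rgn, all 6 were tested and 0 rose or fell. The closest to the threshold was the ascorbate transporter gene Slc23a2, with a log2 fold change of -0.89 in MD+CA vs MD (11.6 ± 2.86 CPM in MD+CA, 21.4 ± 6.58 in MD, adjusted p = 0.0565).

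Other cell types and processes moved between the same groups. Among all genes tested, 2.71% passed in MD+CA vs MD, 0.528% in MD+CA vs CD and 0.088% in MD vs CD. Of 8 Kupffer cell and macrophage markers 5 rose in MD+CA vs MD and 3 in MD+CA vs CD, and the list summed to 342 to 711 CPM in MD+CA, 157 to 270 in MD and 205 to 260 in CD. Of 11 endothelial markers 10 were tested and 0 rose or fell, with 74.7 to 142 summed CPM in MD+CA, 114 to 151 in MD and 101.1 to 130 in CD. Of 14 clock genes 1 rose and 8 fell in MD+CA vs MD, and 1 rose and 4 fell in MD+CA vs CD (249 to 453 summed CPM in MD+CA, 769 to 1205 in MD, 585 to 922 in CD), and the labels give no time of collection. Of 12 immediate early genes 11 were tested, and 6 fell in MD+CA vs MD and 1 rose in MD vs CD (85.8 to 180 summed CPM in MD+CA, 197 to 1770 in MD, 89.0 to 319 in CD). Their part in the values of the 10 genes, and in the calls of the pericentral, periportal and Wnt lists, was not tested.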

How the data were processed

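Poly(A)-selected liver RNA was sequenced from 12 libraries, made from 500 ng of RNA each, per the labels. Build GRCm39 and the tools Salmon 1.10.3, fastp and DESeq2 are named in the submitters' processing notes; no annotation release or strand setting is named. Each deposited table lists 147556 transcripts. Its estimated counts, in the NumReads column per the file headers, are not scaled for depth or length. The authors deposited TPM values too, scaled for transcript length and library depth, and effective lengths, which subtract an allowance for fragments.

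Estimated counts were summed per gene ID and rounded. Genes were filtered with filterByExpr (minimum count 10), which left 13631, and scaled with TMM factors. CPM values are TMM-scaled, and log2 CPM has a prior count of 2. All 12 libraries entered 1 quasi-likelihood fit in edgeR 4.0.16 with a mean per group, from which the contrasts were taken. P-values were Benjamini-Hochberg adjusted over the 13631 genes (threshold 0.05), and 95% intervals come from the standard error. TPM was used to compare levels between genes and, beside CPM, to compare the groups for Slc1a2 and Znrf3. It is not TMM-scaled, so TPM and CPM differ in more than length. The fitting steps were tested on simulated counts. Replicates differed beyond sampling noise, so all 12 libraries were kept as separate samples. Promoter windows are those of RefSeq. Software was Python 3.11.15 (numpy 2.4.6, scipy 1.17.1, pandas 2.3.3, matplotlib 3.10.9) and R 4.3.3 (limma 3.58.1, DESeq2 1.42.0).

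The 10 genes, the gene lists and the rule for named genes were chosen with earlier results of these data known. The rule takes all 10 genes, the genes of each list past the threshold, or otherwise the tested genes with the smallest p, and the genes most like each of the 10. Rspo3, Gls2 and the 2045-base Axin2 form were named besides. Alternatives were other tools (DESeq2; limma voom with sample weights), other scalings (upper-quartile; RLE), a transcript length offset, no low-count filter, protein-coding genes only, a replicate block, a fit of only both groups compared, and leaving out each library. A fragment length covariate was added after seeing the data.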

Additional observations from a re-analysis of the deposited data

How the results depend on the processing

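Over 22 alternatives the count of the 10 genes past the threshold stayed at 0 in all 3 comparisons, except that limma voom with sample weights gave 1 in MD vs CD (Tbx3). Of 660 alternative log2 fold changes of these genes 637 kept their direction and side of the threshold, 22 changed sign and 1 passed. In MD vs CD Rnf43 became 0.0356 with the fragment length covariate. In MD+CA vs MD Lgr5 became 0.0936 with the length offset and Axin2 0.0387 with limma voom. In MD+CA vs CD Glul became -0.00599 without the low-count filter, Slc1a2 0.0223 with upper-quartile scaling and 0.0804 with the length offset, and Axin2 -0.0590 with the length offset. The causes were not tested.

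Leaving out 1 library at a time gave -0.159 to 0.0164 for Znrf3 in MD vs CD. For MD+CA vs MD it gave -0.287 to 0.00812 for Oat, -0.194 to 0.0289 for Rgn, -0.328 to 0.0330 for Lgr5 and -0.426 to 0.0677 for Axin2. For MD+CA vs CD it gave -0.104 to 0.128 for Glul, -0.0692 to 0.10 for Slc1a2, -0.205 to 0.742 for Rhbg, -0.153 to 0.255 for Axin2 and -0.115 to 0.367 for Tbx3. It also moved Rhbg in MD+CA vs MD to between -1.72 and -0.852, Glul in MD vs CD to between 0.182 and 0.386, Axin2 to between 0.0869 and 0.436 and Lgr5 to between 0.213 and 0.573 there. Of the 6 results with an unadjusted p under 0.05, Tbx3 in MD vs CD kept it in 23 of 23 fits and Rhbg in 19. Tbx3 in MD+CA vs MD kept it in 19 and Znrf3 in 18, and in MD+CA vs CD Znrf3 kept it in 22 and Rnf43 in 11.

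The count over all genes differed between fits that also differ in the genes they test: 13631 with edgeR and limma voom, 27133 without the filter, and for DESeq2 all 56065 before its own filtering. In MD vs CD it was 12 by edgeR, 638 by DESeq2, 374 by limma voom and 481 without the filter. For MD+CA vs MD it was 369, 1219, 408 and 1017, and in MD+CA vs CD 72, 328, 191 and 390, in the same order. With only both groups it was 35, 99 and 46, with the length offset 2, 197 and 34, and with the fragment length covariate 6, 142 and 164 in the 3 comparisons. Deviations of log2 CPM from the group mean of each gene were correlated between same-numbered libraries of different groups. These correlations were -0.0792 to 0.35, above 0.1 in 8 of 12 pairs. A library was also set against the 4 libraries of each other group, and in 16 of 24 such cases its own number correlated best. The main fit held no term for this number. With the number as a replicate block, 0 of the 10 genes passed in each comparison, and 12, 664 and 154 of all genes did. Rhbg, at 5 to 65 reads per library, is limited most by depth.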
